A study of Homo sapiens with 3 samples.

Results

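The region described here is the stretch of chromosome 16 from 37.8 to 54.0 Mb of the T2T-CHM13 assembly. Its 16.2 Mb begin beside the active centromeric array, cross the pericentromeric satellite block and end in the long arm. Every peak that overlapped these limits by at least 1 bp was taken, which gave 5059 of the 181157 control peaks and 6852 of the 105729 siORCA peaks. A single control peak crossed the centromere-side limit and was trimmed there for covered lengths, but not for peak widths. The data are H3K27me3 ChIP-seq peaks from U2OS, an established human osteosarcoma line. The control library came from cells transfected with Gl3, and the other from cells transfected with siORCA, which is directed at ORCA, a protein that binds the origin recognition complex. The third sample, an input without treatment, was not analysed here. All 3 samples carry the same batch label, and the series title links ORCA to the stability of Polycomb complexes.

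H3K27me3 is the histone mark written by Polycomb repressive complex PRC2, and in most cells it covers silent genes. The large satellite block of chromosome 16 is built mainly from human satellite 2, a family of short, diverged repeats in tandem. Such blocks are usually packed as constitutive heterochromatin, with H3K9me3 and methylated DNA. Polycomb proteins are also known to gather on satellite DNA in some cancer lines and where DNA methylation has been lost. The lists hold no repeat annotation and no sequence of this assembly was used here, so the name of the block was not checked against its sequence, no gene was assigned at its edges, and no sequence is shown. Satellite arrays differ in length and sequence between people, and reads of U2OS were placed on the array of another genome. The sources used here do not give how reads that fit several repeat copies were handled.

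In the control list 10.2 Mb of the region lay under peaks (62.8%), against 7.18 Mb (44.3%) in siORCA, and the ratio of siORCA to control was 0.706. The number of peaks went the other way, with 1.35 times as many peaks in siORCA. The region held 60.6% of the control peak length of chromosome 16 and 77.4% of the siORCA peak length. Over the other 80.1 Mb of the chromosome, control peaks covered 8.26% and siORCA peaks 2.62%, with a ratio of 0.317. The ratio was thus below 1 in the region and lower still in the rest of its chromosome, counted as 1 set. That rest includes the active array from 35.8 to 37.8 Mb, where the ratio was 1.05. The array held 0.983 of the 2.10 Mb of siORCA peak length in the rest, and 0.932 of the 6.62 Mb of control peak length. No value was computed for the rest without the array. With 1 library per condition, no difference between the lists was tested. The depth is unknown, and less mark and fewer reads in the siORCA library cannot be told apart. Limiting both lists to a −log10 q-value of at least 2 lowered the ratio of length to 0.404 in the region and to 0.188 in the rest of the chromosome, and turned the ratio of peak number in the region to 0.773. Counting only peaks whose fold reached 3, the ratios of length were 0.794 and 0.721, so the gap between the region and the rest depended on which peaks were counted. This limit fell unevenly on the lists. In the region it kept 3589 of 5059 control peaks and 6590 of 6852 siORCA peaks, so it mainly shortened the control list.

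In bins of 100 kb, siORCA was lower in covered length over nearly the whole region. Of the 162 bins, 149 were covered over at least 5% in 1 of the lists, and siORCA was lower in all 149, where 90.2% of such bins over all chromosomes were lower. The siORCA length was at most 0.5 of the control length in 20 of the 149 bins (13.4%), against 76.5% of bins over all chromosomes. In 0 of them was it at least 2 times the control length, against 2.41% over all chromosomes. Control peaks covered at least 50% of 133 of the 149 bins, which left siORCA no room to reach 2 times that length. The 0 therefore does not set the region apart. Limiting both lists to a −log10 q of at least 2 brought the count of bins at or below 0.5 to 118 of 145 (81.4%), against 77.3% over all chromosomes. With a fold of at least 3 it was 11 of 143 (7.69%), against 47.9%. The share in the region was thus below that over all chromosomes in the deposited lists and with the limit on fold, but not with the limit on q. The sets differ in how densely their bins are covered. With these limits, no share was computed for densely covered bins alone. The 4 bins in which siORCA covered more than the control all lay at the long-arm edge, where both lists covered at most 2.10% of those bins. The largest such difference was from 52.9 to 53.0 Mb, with 1.18 kb in the control and 1.89 kb in siORCA.

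**Figure D1:**
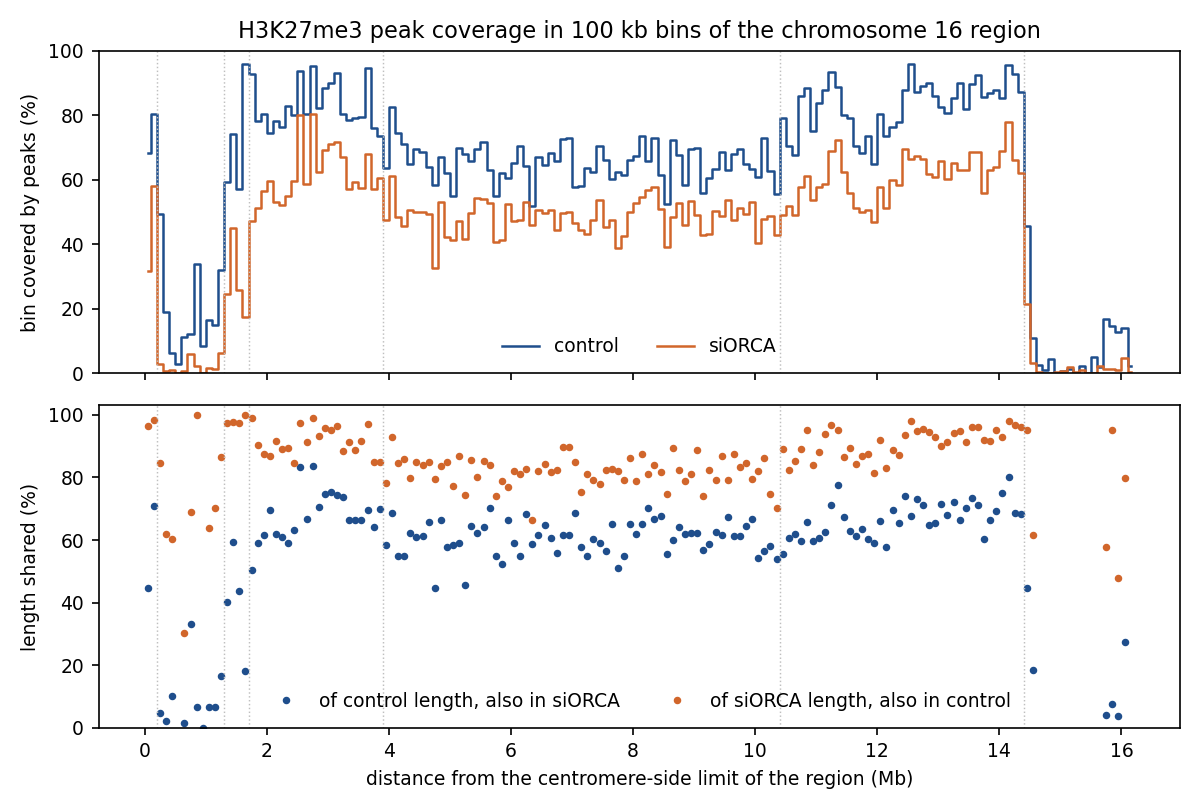
Upper panel: percent of each 100 kb bin covered by H3K27me3 peaks in the control (blue) and siORCA (orange) libraries, against the distance in Mb from the centromere-side limit of the region; dotted lines mark the limits of the zones named in the text. Lower panel: percent of the covered length of each list that is also covered in the other, in bins covered over at least 5% in the control; control coverage is at least 50% in every bin from 1.3 to 14.4 Mb, and siORCA lies below the control in each of them, with 82 of the 131 at 50% or more.

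Of the control bins, 131 in a row were each covered over at least 50%, from 39.1 to 52.2 Mb. This run of 13.1 Mb is called the dense block below. Of its length 9.68 Mb (73.9%) lay under control peaks and 7.03 Mb (53.7%) under siORCA peaks, which gave a ratio of 0.727. In siORCA, 82 of its 131 bins were covered over at least 50%, and they fell into separate runs, of which the longest went from 49.8 to 52.2 Mb, from 39.6 to 41.7 Mb and from 48.5 to 49.5 Mb. Of the 20 bins at or below 0.5, 3 lay in the dense block (2.29% of its bins), all of them in its initial 4 bins on the centromere side. The other 17 were among the 18 tested bins outside it (94.4%). The share over all chromosomes was 76.5%, but the sets are unlike. That share mixes thinly and densely covered bins, and most of these 18 were covered over less than 50% in the control. Outside the whole region, 924 bins of all chromosomes were covered over at least 50% in the control. Of these, in 42.7% siORCA had at most 0.5 of the control length, and in 79.9% it had less than the control. Their ratios were wide apart, with quartiles of 0.174 and 0.992 around a median of 0.654, whereas those of the dense block had quartiles of 0.690 and 0.775 around a median of 0.740. The 924 bins pool unlike regions. They include the 132 bins of the chromosome 1 satellite block described below, which had a ratio of 0.995 over its length. A narrow spread was therefore not shown to be particular to the dense block.

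Coverage inside the dense block varied along it. Its profile was divided into zones after it had been seen, so their coverage is a description of how they were drawn. A proximal dense zone from 39.5 to 41.7 Mb had 83.1% of its length under control peaks and 61.6% under siORCA peaks. A distal dense zone from 48.2 to 52.2 Mb had 83.1% and 60.7%. The middle zone between them, 65 bins long, had 65.2% and 48.2%. The proximal and distal zones were thus above the middle in both lists, and the ratios lay close together: the ratio was 0.741 in the proximal zone, 0.740 in the middle and 0.730 in the distal zone. Across the 131 bins of the dense block, the coverage of the lists correlated with a Pearson r of 0.744 and a Spearman rho of 0.807; the bins share their sequence and its mappability between the libraries, and this is given as a description only.

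Single bins showed the range within these zones. The highest siORCA coverage in the region was 80.5%, in the bin from 40.5 to 40.6 Mb, where the control reached 95.3%. The bin from 40.3 to 40.4 Mb followed with 80.2% in siORCA and 93.7% in the control, and the bin from 51.9 to 52.0 Mb had 78.0% and 95.6%. The lowest siORCA coverage of the middle zone was 32.7%, from 42.5 to 42.6 Mb, where the control had 58.3%. In the middle zone the control ranged from 52.0% to 82.6% and siORCA from 32.7% to 61.1% over 65 bins, so the lists overlapped in range although siORCA was the lower of the pair in each bin.

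The edges of the dense block differed from its inside. On the centromere side, a strip from 37.8 to 38 Mb had 74.3% of its length under control peaks against 44.8% under siORCA peaks. It was followed by a thin stretch from 38 to 39.1 Mb with 18.8% under control peaks and only 2.04% under siORCA peaks. In that stretch the control listed 177 peaks over 206.3 kb and siORCA listed 46 peaks over 22.5 kb, which gave a ratio of length of 0.109. The bins from 38.3 to 38.4 Mb and from 38.7 to 38.8 Mb held 2.76 and 8.33 kb of control peaks and no siORCA peak. The step of 10 kb from 38.03 to 38.04 Mb was covered over 83.8% in the control and held no siORCA peak either, although it begins only a short way beyond the strip, where the steps from 37.92 to 37.93 Mb and from 37.98 to 37.99 Mb were covered over 100% in both lists. The siORCA gap from 38688264 to 38815024 (126.8 kb) held 18 control peaks, which covered 14.0% of it. The siORCA coverage of the thin stretch was thus close to the 2.62% found over the rest of the chromosome, and its control coverage was higher than the 8.26% found there.

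The largest single difference of the region lay at the inner edge of the dense block, from 39.1 to 39.5 Mb. Control peaks covered 71.7% of it and siORCA peaks 28.1%. In the bin from 39.4 to 39.5 Mb, the control had 96.0 kb under 7 peaks and siORCA had 17.4 kb under 35 peaks, all of it inside the control peaks. In steps of 10 kb, which were looked at after the bins had been seen, the 5 steps from 39.45 to 39.5 Mb were covered over 94.5% to 100% in the control, and over 1.0% to 8.4% in siORCA. Other steps of the inner edge were high in both lists, such as those from 39.17 to 39.18 Mb (100% and 90.4%) and from 39.22 to 39.23 Mb (100% and 91.7%). The low siORCA coverage of the inner edge was thus uneven along it. In the next bin, from 39.5 to 39.6 Mb, the control had 92.9 kb and siORCA 47.3 kb. The other bins with the largest differences were from 38 to 38.1 Mb, with 49.2 and 2.77 kb, from 37.8 to 37.9 Mb, with 68.2 and 31.6 kb, and from 39.1 to 39.2 Mb, with 59.4 and 24.6 kb. All 5 bins lay before 39.6 Mb, so the largest differences in length stood at the centromere side of the region.

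On the long-arm side coverage fell within a short distance, and unevenly. The last long peaks lay just past the 52.2 Mb limit: a control peak from 52200368 to 52222305 and a siORCA peak from 52205662 to 52219510, which lay wholly inside it. In steps of 10 kb, coverage was still 100% and 95.1% from 52.21 to 52.22 Mb, and it was 13.7% and 0% from 52.23 to 52.24 Mb. Single later steps were higher again, with 79.0% and 12.7% from 52.26 to 52.27 Mb and 63.2% and 28.8% from 52.33 to 52.34 Mb. From 52.3 to 52.4 Mb coverage was 10.8% in the control and 3.24% in siORCA, and over the whole long-arm edge to 54.0 Mb it was 7.54% and 2.21%. The longest gaps of both lists lay here. In the control the longest went from 52666510 to 52858217 (191.7 kb), and in siORCA from 53147243 to 53426292 (279.1 kb).

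The siORCA coverage of the dense block was made of more and shorter peaks. The dense block held 4712 control peaks and 6705 siORCA peaks, 1.42 times as many. The median width was 1126 bp in the control (quartiles 466 and 2381 bp) and 694 bp in siORCA (346 and 1369 bp). In 123 of the 131 bins siORCA had more peaks than the control, and in 128 bins the median siORCA peak was the narrower. These bin counts are not given for all chromosomes. Narrower siORCA peaks were not particular to the dense block. Control and siORCA medians were 515 and 414 bp over the whole lists, and 527 and 393 bp over the rest of chromosome 16. The active array went the other way, with 595 and 652.5 bp. The number of peaks per bin was nearly level across the proximal, middle and distal zones in siORCA and not in the control. The median bin held 48.0, 55.0 and 51.5 siORCA peaks in these zones, in that order, and 30.0, 46.0 and 26.5 control peaks. In the proximal and distal zones the control thus had higher coverage from fewer peaks. The median width of control peaks was 1744 and 1642 bp there against 908 bp in the middle, and that of siORCA peaks was 817 and 810 bp against 628 bp. Peaks of at least 1 kb made up 53.5% of the control peaks and 36.2% of the siORCA peaks of the dense block, and when only such peaks of the region were counted, siORCA had fewer than the control, a ratio of 0.932.

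**Figure D2:**
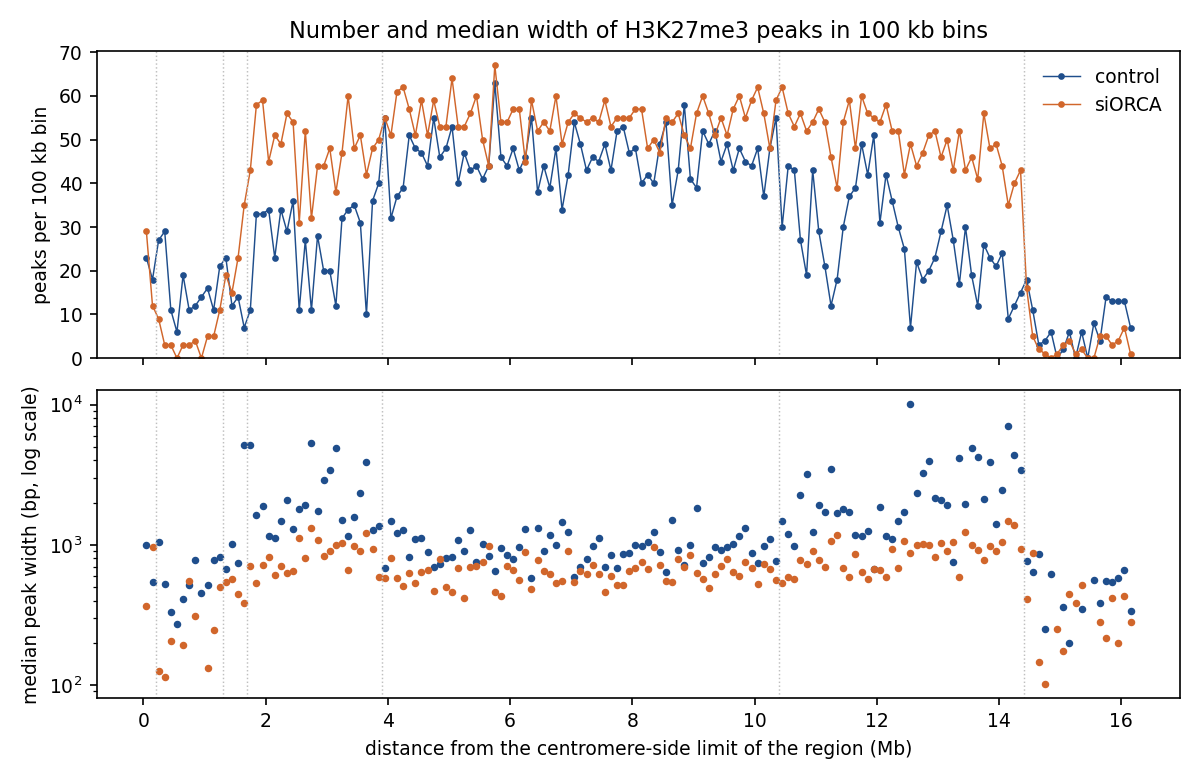
Upper panel: number of peaks with their midpoint in each 100 kb bin, for control (blue) and siORCA (orange), against the distance in Mb from the centromere-side limit; lower panel: median width of those peaks in bp on a log scale, with dotted lines at the zone limits. In the proximal and distal zones the control has fewer and wider peaks than in the middle, whereas siORCA stays at medians of 48.0 to 55.0 peaks per bin.

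The longest control peaks were each met by many siORCA peaks. The longest ran from 39354354 to 39437611 (83.3 kb) and was covered over 46.5% by 44 siORCA peaks, the longest of them 9.16 kb. The next, from 40549464 to 40617239 (67.8 kb), was covered over 84.0% by 18 siORCA peaks. The control peak from 40320209 to 40380961 (60.8 kb) was covered over 89.8% by 13 peaks, that from 41438546 to 41487091 (48.5 kb) over 72.6% by 18 peaks, and that from 39204551 to 39247016 (42.5 kb) over 68.3% by 7 peaks. The share covered in siORCA therefore varied among these peaks, and the lowest was at the inner edge.

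The 5 longest siORCA peaks lay at the edges of the region's dense parts or in its proximal zone. They ran from 37916838 to 37939633 (22.8 kb), from 37975157 to 37997184 (22.0 kb), from 40316464 to 40333671 (17.2 kb), from 52205662 to 52219510 (13.8 kb) and from 39261794 to 39275396 (13.6 kb). Except for the one at 40316464, which was covered over 97.6%, each lay wholly inside a single control peak. No siORCA peak of the region reached the length of any of the 5 longest control peaks.

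Over all control peaks of the dense block, the number of siORCA peaks per control peak grew with width. Control peaks under 500 bp never overlapped more than 1 siORCA peak, and 66.0% of these 1256 peaks overlapped any (95% Wilson interval 63.3 to 68.6%, which covers counting error only and treats peaks as independent). Of the 1045 control peaks of 2 to 5 kb, 74.3% overlapped at least 2 siORCA peaks. All 93 control peaks of at least 10 kb did so, with a median of 7 siORCA peaks each. In the other direction, 9.22% of the siORCA peaks overlapped at least 2 control peaks, and 56.4% lay wholly inside the control peaks. A wider peak has more room for peaks of the other list, so part of this order follows from width alone.

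**Figure D3:**
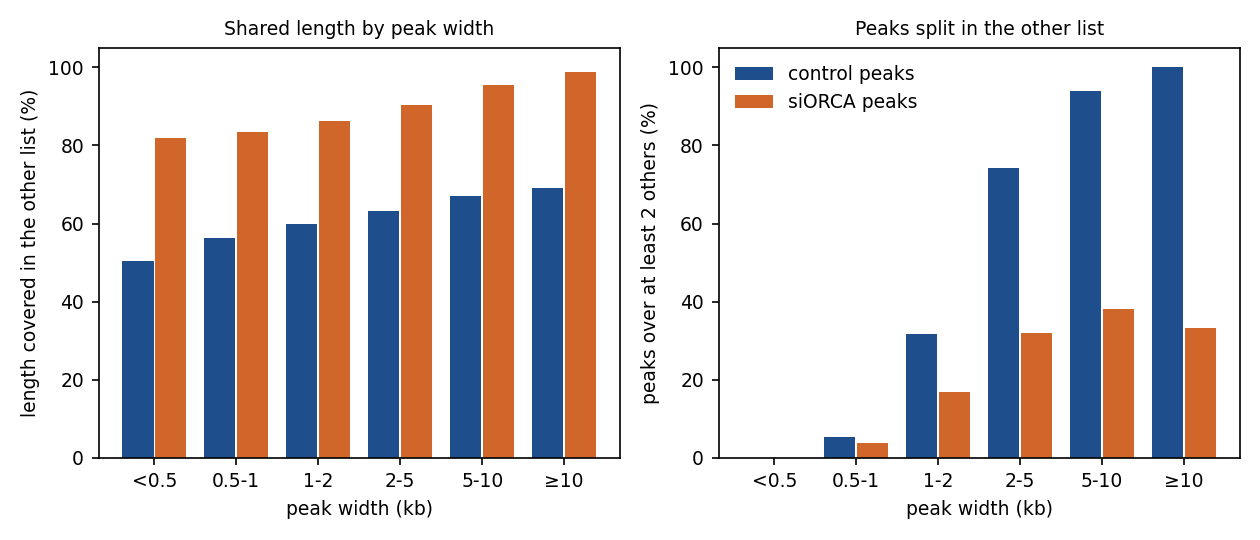
Peaks of the dense block by width in kb, for control (blue) and siORCA (orange). Left: percent of their length covered in the other list. It rises from 50.3% to 69.1% for control peaks and from 81.8% to 98.9% for siORCA peaks. The widest class holds 93 control peaks and only 6 siORCA peaks. Right: percent of peaks that overlap at least 2 peaks of the other list, which reaches 100% for control peaks of at least 10 kb.

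The gaps between peaks were short in both lists, and longer in siORCA. Inside the dense block the median gap was 565 bp in the control (quartiles 455.5 and 822 bp) and 674 bp in siORCA (504 and 1067 bp). Gaps under 1 kb made up 83.8% of control gaps and 71.9% of siORCA gaps. The longest gap within a bin had a median over the 131 bins of 1.75 kb in the control and 2.64 kb in siORCA. The longest gaps of the dense block lay at its inner edge in both lists: 25.6 kb in the control, from 39295721 to 39321281, and 28.8 kb in siORCA, from 39302042 to 39330817. These overlap each other, so the inner edge held a stretch with nearly no peak in either library. Other siORCA gaps there were filled in the control. Control peaks covered 96.7% of the siORCA gap from 39474217 to 39489237 and 85.6% of that from 39446918 to 39458839.

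Because the gaps were short, joining peaks at most 3 kb apart tied most of the dense block into a few stretches. It then consisted of 16 stretches in the control and 80 in siORCA. The longest control stretch ran from 49458741 to 52222305 (2763.6 kb, 710 peaks), and siORCA peaks covered 62.2% of it. This stretch ended past the dense block, and counted within the block it was 2739.8 kb long. The longest siORCA stretch ran from 50963271 to 52198488 (1235.2 kb, 559 peaks), and control peaks covered 88.2% of it. The control stretch next in length lay in the middle zone, from 44679497 to 46416488 (1737.0 kb, 813 peaks), of which siORCA peaks covered 48.5%. In siORCA, 4 of the 5 longest joined stretches lay in the proximal and distal zones. Over the whole region the counts were 142 and 153, a ratio of 1.08 that turned on the gap: it was 2.07 when peaks at most 1 kb apart were joined and 0.879 at 10 kb. Of these, 89 control stretches and 28 siORCA stretches held no peak of the other list, a count not made outside the region. The longest such control stretch had 14.7 kb and 8 peaks, from 38141404 to 38156077 in the thin stretch. The longest such siORCA stretch had 4.76 kb and 3 peaks, from 38009012 to 38013770.

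Most siORCA bases of the region were also control bases. The control list contained 87.5% of the siORCA peak length, and the siORCA list contained 61.8% of the control peak length, or 35.8% with a −log10 q of at least 2 in both lists. These shares depend on how much each list covers, so siORCA coverage was also measured on and between control peaks. In the dense block it was 63.6% on control peaks and 25.7% over the 3.42 Mb between them. The corresponding values were 68.1% and 29.8% in the proximal zone, 60.7% and 25.0% in the middle zone and 67.0% and 29.9% in the distal zone. The siORCA peaks were therefore denser on control peaks than between them in each zone. The siORCA length outside control peaks came to 0.879 Mb in the dense block, of which 0.564 Mb lay in the middle zone. Neither list covered 2.54 Mb of the dense block.

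The lists carry no header, and their 7th column was taken as the authors' fold enrichment over background because the broadPeak format defines it so. Within each list, the median of this fold was higher in the dense block than in the list as a whole. The median fold was 3.21 in the control, against 2.73 for all control peaks, and 3.47 in siORCA, against 3.29. Folds were not compared between the lists, but the limit of 3 used above was the same in both and kept unlike shares of them. The proximal and distal zones ranked above the middle in both: the medians were 3.30, 3.16 and 3.34 in the proximal, middle and distal zones of the control, and 3.50, 3.44 and 3.52 in siORCA. Across bins of the dense block, coverage and median fold correlated with a Pearson r of 0.706 in the control and 0.660 in siORCA. The zones were drawn by coverage, so this order of folds is not independent of how they were drawn. The thin stretch and the long-arm edge were near the level of the whole control list, with medians of 2.73 in each. In siORCA these were 3.13 and 3.22, below that list's median.

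Among control peaks of at least 1 kb, the 5 with the highest folds stood in the centromere-side strip, in the inner edge or just past 52.2 Mb. The median folds of these zones were nevertheless below those of the proximal, middle and distal zones, with 2.92 in the strip, 2.90 in the inner edge and 2.73 in the long-arm edge. The 5 peaks ran from 37971853 to 37998319 (fold 7.08), from 39254821 to 39276860 (6.43), from 37915388 to 37954716 (6.35), from 52200368 to 52222305 (5.89) and from 39204551 to 39247016 (5.82), and siORCA peaks covered from 63.7% to 85.7% of each. Of the 5 longest siORCA peaks, 4 lay inside peaks of this set. Among siORCA peaks of at least 1 kb, the 5 with the highest folds were elsewhere. They were 1.06 to 1.57 kb long, had folds from 4.71 to 5.04, and lay inside the dense block, the highest from 42399126 to 42400183. Control peaks covered from 97.9% to 100% of each. Shorter siORCA peaks reached higher folds, up to 7.30 in the proximal zone, 6.25 in the middle and 5.46 in the distal zone.

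Control peaks with higher folds had more of their length covered in siORCA, except between the upper groups of narrow peaks. The control peaks of the dense block were split by fold into 4 groups of equal number. In the group with the lowest folds (up to 3.00), 51.2% of the length also lay under siORCA peaks, and in the group with the highest (from 3.44) 68.4% did. For control peaks of 1 to 3 kb, the share rose from 52.2% through 57.2% and 61.8% to 68.1% over the 4 groups. For those under 1 kb it was 48.0%, 53.7%, 60.3% and 60.2%, with no rise between the upper groups. For siORCA peaks, split in the same way, the share of length that control peaks also covered went from 78.5% in the lowest group to 92.3% in the highest. This ordering was not tested.

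Peak coverage of the middle zone recurred weakly at the same distance in both lists. When the coverage of the middle zone, in steps of 50 bp, was correlated with its own copy shifted by 2 to 10 kb, the highest value came at a shift of 6.15 kb in the control (0.0871) and at 6.15 kb in siORCA (0.0538). The median over those shifts was 0.0184 and 0.0097. Between 10 and 15 kb, the highest value came at 12.25 kb in each list, but at 13.05 kb for control coverage against shifted siORCA coverage. From 2 to 10 kb, that pair also had its highest value at 6.15 kb (0.0730). In the parts of the middle zone taken separately, the highest value came at 6.15 and 6.10 kb in the control and at 6.10 and 6.15 kb in siORCA. Between 10 and 15 kb it came at 12.3 and 12.25 kb in the control and at 13.55 and 12.2 kb in siORCA, so a further recurrence did not appear at 1 place in all of them. In the distal zone it came at 6.10 kb in the control and 6.15 kb in siORCA, and in the proximal zone at 6.05 and 6.60 kb. These correlations are low, and both libraries were placed on the same assembled sequence. They are given as a description of where peaks recur. With only peaks of a fold of at least 3, the highest control value moved to 2 kb, the shortest shift searched, while that of siORCA stayed at 6.15 kb.

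**Figure D4:**
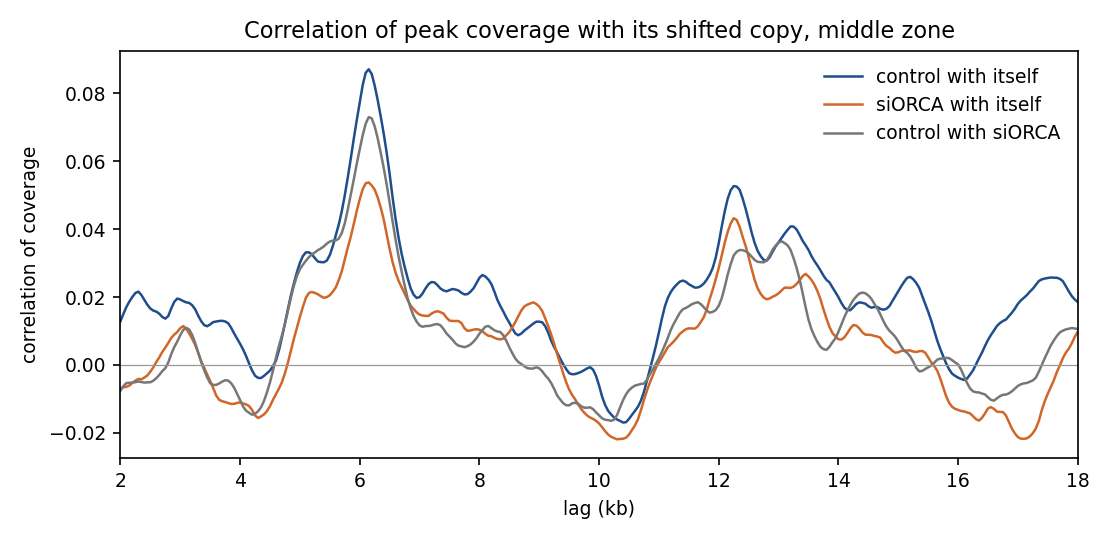
Correlation of peak coverage in the middle zone with a copy shifted by the lag on the x axis in kb, for the control with itself (blue), siORCA with itself (orange) and the control with siORCA (grey). All 3 curves have their highest point at 6.15 kb, and the control and siORCA curves rise again near 12.25 kb.

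Other satellite regions, named from their known positions and not from an annotation, gave other patterns under the same counting. The block of chromosome 1 from 129.0 to 142.2 Mb was under control peaks over 99.7% of its length and under siORCA peaks over 99.2%, with a ratio of 0.995, 94 and 223 peaks and a median width of 42.8 and 21.9 kb. The chromosome 16 dense block, of nearly the same length, was covered in part only and by far shorter peaks. Both blocks nevertheless had more and shorter peaks in siORCA. A stretch of chromosome 9 from 49 to 77 Mb had 25.1% and 11.4%, with a ratio of 0.456, and its highest correlation of shifted coverage came at 2 kb, the shortest shift searched, in both lists. The active array of chromosome 16 itself, from 35.8 to 37.8 Mb, had 46.6% under control peaks and 49.1% under siORCA peaks, with a ratio of 1.05. Only 63.8% and 60.5% of these lengths were shared. From 2 to 10 kb, the highest correlation there came at 3.50 kb in the control and at 3.40 kb in siORCA (0.0936). In siORCA the value at 10.1 kb was as high (0.0937). Control against shifted siORCA coverage was highest at 10 kb, the end of that range. Moving outward along chromosome 16, the ratio thus went from 1.05 in the array to 0.603 in the centromere-side strip, 0.109 in the thin stretch, 0.727 in the dense block and 0.293 at the long-arm edge. These ratios are of the deposited lists and were not recomputed by zone with a limit on q or fold. In the thin stretch and the long-arm edge the upper quartile of control folds was 2.94 and 2.91. The lower quartile of siORCA folds there was 3.00 and 2.97. A fold limit of 3 would thus remove most control peaks of these zones, but not most siORCA peaks. The limits of these regions were chosen with their coverage known, and the differences between them were not tested.

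**Figure D5:**
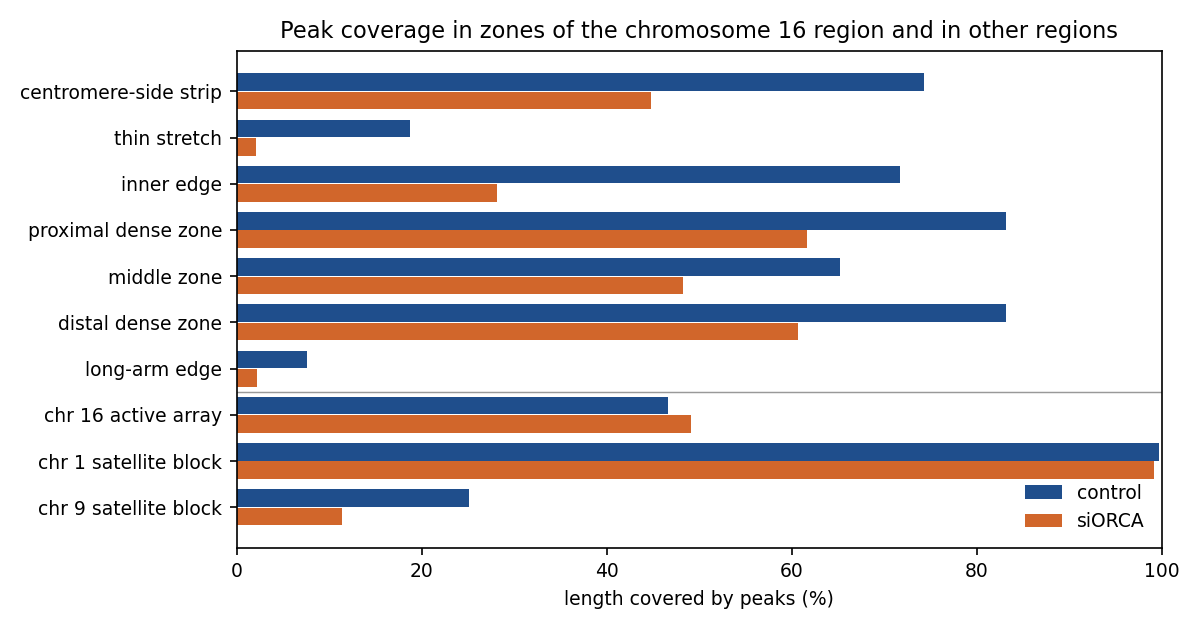
Percent of length covered by H3K27me3 peaks in the control (blue) and siORCA (orange) libraries, for the 7 zones of the region in order from the centromere to the long arm and, below the line, for 3 other regions. Control coverage exceeds siORCA coverage in each of the 7 zones, whereas it is 46.6% against 49.1% in the active array and 99.7% against 99.2% in the chromosome 1 block.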

How the data were processed

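H3K27me3 ChIP-seq peaks of 1 control (Gl3) and 1 siORCA library from U2OS cells were analysed; per the submitters' processing notes, bcl2fastq, Trimmomatic, Bowtie2, SAMtools and the T2T-CHM13 build were used. For the peak caller, its settings, the use of the input and multiply aligned reads, nothing is given in the sources used here. The authors deposited 1 broadPeak list per library, with a score, a fold (ratio) over background, a −log10 p-value and a −log10 q-value per peak, and no deposited peak had a −log10 q under 1.00. Read depth is unknown, so no interval beyond counting error can be given.

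Lengths are merged peak bases, counted in 162 bins of 100 kb with Python 3.11.15 and numpy 2.4.6, and coordinates are printed from 1. Bins were called where 1 list covered at least 5% and siORCA at most 0.5 times, or at least 2 times, the control length. Peaks were assigned to bins by midpoint, and to zones by any overlap. Overlap counting, joining and spacing were tested on simulated data. Named regions are, for each list, the 5 longest peaks, the 5 highest folds among peaks of at least 1 kb, the 5 longest gaps and joined stretches without the other list (the first of each in the text where not all are given), runs of bins covered over at least 50%, and the 5 bins of largest difference. The longest joined stretches, the steps of 10 kb, the gaps inside the dense block and the extreme bins of zones were added after their values were seen. The region, zones and lists of settings were chosen with earlier results of these data known. Alternatives were limits on q, fold, width and number of peaks, other limits of the region, overlap by peaks, shifted bins and other joining gaps.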

Additional observations from a re-analysis of the deposited data

How the results depend on the processing

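No paired analysis was possible because control and siORCA had 1 library each, which also left none to leave out. The covered length of the region stayed lower in siORCA under all 6 alternatives, with a ratio of 0.404 at a −log10 q of at least 2 and from 0.574 to 0.794 otherwise, against 0.706. The ratio of peak numbers turned from 1.35 to 0.773 at a −log10 q of at least 2 and to 0.932 for peaks of at least 1 kb, and was 1.84 at a fold of at least 3. The share of control length under siORCA peaks (61.8%) was 35.8% at a −log10 q of at least 2, 63.8% at a fold of at least 3, 48.8% for peaks of at least 1 kb and 64.3% from 39.5 to 52.2 Mb (chosen after seeing the data). It was 82.7% as peaks overlapped by at least 1 bp and 59.1% as peaks overlapped over at least 50%. The share of siORCA length under control peaks (87.5%) became 88.5% with that limit on q, 80.3% with that on fold and 85.0% with that on width, 86.6% with equal numbers of peaks, and 95.5% and 86.7% as peaks overlapped by 1 bp or over 50%. Bins with at most 0.5 of the control length numbered 118 at a −log10 q of at least 2 and 11 at a fold of at least 3, against 20; over all chromosomes the share of such bins, computed after seeing the data, was 77.3% and 47.9% under these limits. The ratio of joined stretches (1.08) was 3.90 at that limit on q, 0.480 at that limit on fold, and 2.07 and 0.879 with gaps of 1 and 10 kb. The spacing of the middle zone (6150 bp) moved to 2000 bp in the control at a fold of at least 3 and to 6300 bp in siORCA for peaks of at least 1 kb; these alternatives were chosen after seeing the data. For these changes the cause was not tested. In the region the limit on fold kept 3589 of 5059 control peaks and 6590 of 6852 siORCA peaks, and that on q kept 3837 and 2965. A q-value depends on depth, which is unknown, so a bin empty in siORCA was not shown to lack the mark.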
